A study of Maylandia zebra with 2 samples.

Results

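A set of 7 genes of T cell signalling and T cell identity, *lck*, *skap1*, *prkcq*, *sh3kbp1*, *jak3*, *coro1a* and *BCL11B*, was followed across the nuclei of cichlid oral tissue. They were chosen by name because earlier values of these same data had placed them in an immune cluster, and they are 7 of the 28622 features in the count matrix. Each name belonged to a single feature, and all 7 passed a minimum of 10 UMIs (unique molecular identifiers, each standing for 1 captured RNA molecule). Because the choice rests on the levels by cluster, those levels are a description and carry no test.

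The tissue was oral lamina, the epithelium-bearing soft tissue next to replacement teeth, from the upper jaw and the lower jaw of *Maylandia zebra*, a Lake Malawi cichlid, with 1 library per jaw. After lysis, single nuclei stained by DAPI were collected on a sorter and made into 10x Chromium V3 libraries, so the counts are mostly of nuclear RNA. No genotype, treatment or age separates the groups, and no strain, sex or number of animals is stated in the labels. Both jaws share a matrix in which barcodes end in 1 or 2, no source ties an ending to a jaw, and the jaws were therefore handled as a single pooled sample without replicates.

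The kept nuclei numbered 1296 of 1381 barcodes and held 1423040 UMIs, with 367 to 5326 UMIs per nucleus and a median of 832.5. The authors' deposited clusters are numbered 0 to 11 and grouped into 6 named classes. The Immune class holds cluster 2 with 181 nuclei, cluster 8 with 50 nuclei and cluster 9 with 35 nuclei, at median depths of 744, 935.5 and 554 UMIs. Cluster 5 is the Pigmented class with 98 nuclei, cluster 6 the Mesenchymal class with 85, cluster 10 the Mature TB class with 21 and cluster 11 the Immature TB class with 18. Clusters 0, 1, 3, 4 and 7 form the Epithelial class, whose 808 nuclei had a median of 840.5 UMIs. UMIs were summed per cluster and scaled to CPM (UMIs of a gene per 1000000 UMIs), and the intervals given are 95% intervals that cover counting error only. Levels are compared across clusters, not between genes.

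In mammals a T cell recognises its target through the T cell receptor, and the kinase Lck starts the signal by phosphorylating the receptor chains. Adaptor proteins then gather enzymes at the membrane, protein kinase C theta carries the signal to the transcription factor NF-kB, and the actin skeleton is rebuilt at the contact site. JAK3 serves the separate set of receptors for interleukin 2 and its relatives, and BCL11B keeps developing lymphocytes on the T lineage. These roles are known mainly from mouse and human cells. The genes do not all belong to T cells alone, since several are used by other blood cells and BCL11B is also made in mouse skin and tooth epithelium.

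All 7 genes had their highest level in cluster 2. Their UMIs there were 50.0% to 67.9% of all their UMIs in the kept nuclei, with *lck* at the low end and *prkcq* at the high end, and the Immune class as a whole held 63.4% to 79.5%. All 7 were at least 2-fold higher in cluster 2 than in the other nuclei, a size reached by 13.4% of the 12230 features with at least 10 UMIs. Since the genes were chosen from this contrast, nothing is read from that count. The median log2 fold of the 7 genes in cluster 2 was 3.16, against a median of -0.03 over all of those features.

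The receptor-proximal kinase *lck* (ENSMZEG00005006276) reached 245 CPM in cluster 2 (41 UMIs, 176 to 332). In the other Immune clusters it stood at 230 CPM in cluster 9, from 5 UMIs, and at 97.1 CPM in cluster 8, from 6 UMIs. It had 54.7 CPM in cluster 5, 9.08 CPM in cluster 6 and 23.9 CPM in the Epithelial class. Thus clusters 2 and 9 lay close together at the top, although the interval for cluster 9 ran from 74.7 to 537 CPM. Its level in cluster 2 was 7.49 times that in the other nuclei (4.74 to 11.8). A UMI of *lck* was found in 15.5% of cluster 2 nuclei and in 2.60% of Epithelial nuclei, and in 8.0% and 2.16% after each nucleus had been drawn down to 500 UMIs.

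The adaptor gene *skap1* (ENSMZEG00005008137), whose product joins ADAP to switch on integrins after receptor signalling, had 543 CPM in cluster 2 (91 UMIs, 437 to 667). It had 414 CPM in cluster 9, 194 CPM in cluster 8 and 186 CPM in cluster 5, and 34.8 CPM in the Epithelial class. Clusters 8 and 5, from different classes, were thus nearly level for this gene, with a ratio of 1.04 (0.455 to 2.32). The fold of cluster 2 over the other nuclei was 8.97 (6.54 to 12.3). Nuclei with a *skap1* UMI made up 34.3% of cluster 2 and 3.22% of the Epithelial class, or 23.3% and 1.59% at 500 UMIs.

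The second adaptor gene, *sh3kbp1* (ENSMZEG00005019031), encodes CIN85, which binds the ubiquitin ligase CBL and takes part in pulling receptors into the cell. It had 489 CPM in cluster 2 (82 UMIs, 389 to 607), 414 CPM in cluster 9, 275 CPM in cluster 8 and 229.8 CPM in cluster 5. It also reached 118 CPM in cluster 6, against 13.1 CPM in the Epithelial class. The Mesenchymal level was thus 9.03 times the Epithelial one (3.80 to 21.7), from 13 UMIs in 11 nuclei. The fold of cluster 2 over other nuclei was 8.08 (5.84 to 11.2), with a UMI in 30.9% of cluster 2 nuclei and 1.11% of Epithelial nuclei, or 21.3% and 0.432% at 500 UMIs.

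For *prkcq* (ENSMZEG00005000194), which encodes protein kinase C theta, the contrast with epithelium was the widest of the 7. Its level was 453 CPM in cluster 2 (76 UMIs, 357 to 568), 276 CPM in cluster 9 and 113 CPM in cluster 8, with 76.6 CPM in cluster 5 and 7.62 CPM in the Epithelial class. Cluster 2 thus stood 59.5 times above the Epithelial class (27.5 to 153) and 15.8 times above all the other nuclei (10.5 to 24.2). A single nucleus of cluster 2 held 9 of the 76 UMIs, or 11.8%. A UMI was seen in 25.4% of cluster 2 nuclei and in 0.866% of Epithelial nuclei, or in 15.3% and 0.288% at 500 UMIs. Cluster 6 showed 72.6 CPM, but its 8 UMIs came from 3 nuclei.

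The cytokine receptor kinase gene *jak3* (ENSMZEG00005017385) had 501 CPM in cluster 2 (84 UMIs, 400 to 621) and 322 CPM in cluster 9. Cluster 5 followed with 284 CPM (26 UMIs, 186 to 417), above the 129 CPM of cluster 8, while the Epithelial class had 16.3 CPM. It was thus the gene of the 7 with the smallest ratio of cluster 2 over cluster 5, 1.76 (1.12 to 2.85). Its fold in cluster 2 over other nuclei was 9.25 (6.64 to 12.9). A UMI was present in 34.8% of cluster 2 nuclei, 21.4% of cluster 5 nuclei and 1.49% of Epithelial nuclei, or in 30 of 150, 8 of 81 and 3 of 694 nuclei at 500 UMIs.

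The gene *coro1a* (ENSMZEG00005023199) encodes coronin 1A, an actin regulator of white blood cells, and had few UMIs outside cluster 2. It had 334 CPM in cluster 2 (56 UMIs, 252 to 434), against 138 CPM from 3 UMIs in cluster 9, 113 CPM in cluster 8 and 32.8 CPM from 3 UMIs in cluster 5. Cluster 10 had 159 CPM from 4 UMIs in 2 nuclei, and the Epithelial class had 14.2 CPM. The ratio of cluster 2 over cluster 5 was 10.2 (3.31 to 50.9), the largest of the 7, and the fold over other nuclei was 11.99 (7.72 to 18.8). Shares of nuclei with a UMI were 20.4% in cluster 2 and 1.49% in the Epithelial class, or 11.3% and 1.01% at 500 UMIs.

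The zinc finger transcription factor gene *BCL11B* (ENSMZEG00005017268) had 489 CPM in cluster 2 (82 UMIs, 389 to 607), 322 CPM in cluster 9, 178 CPM in cluster 8 and 120 CPM in cluster 5. The Epithelial class had 38.1 CPM, with an uneven spread among its clusters. Clusters 4 and 7 had 73.4 CPM and 70.7 CPM, cluster 0 had 39.1 CPM and cluster 1 had 13.7 CPM. Cluster 3 had 0 UMIs of this gene, where 3 UMIs would have been 28.7 CPM. The fold of cluster 2 over other nuclei was 8.30 (5.99 to 11.5), and a UMI was found in 30.9% of cluster 2 nuclei and 3.47% of Epithelial nuclei, or in 19.3% and 1.87% at 500 UMIs.

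**Figure D1:**
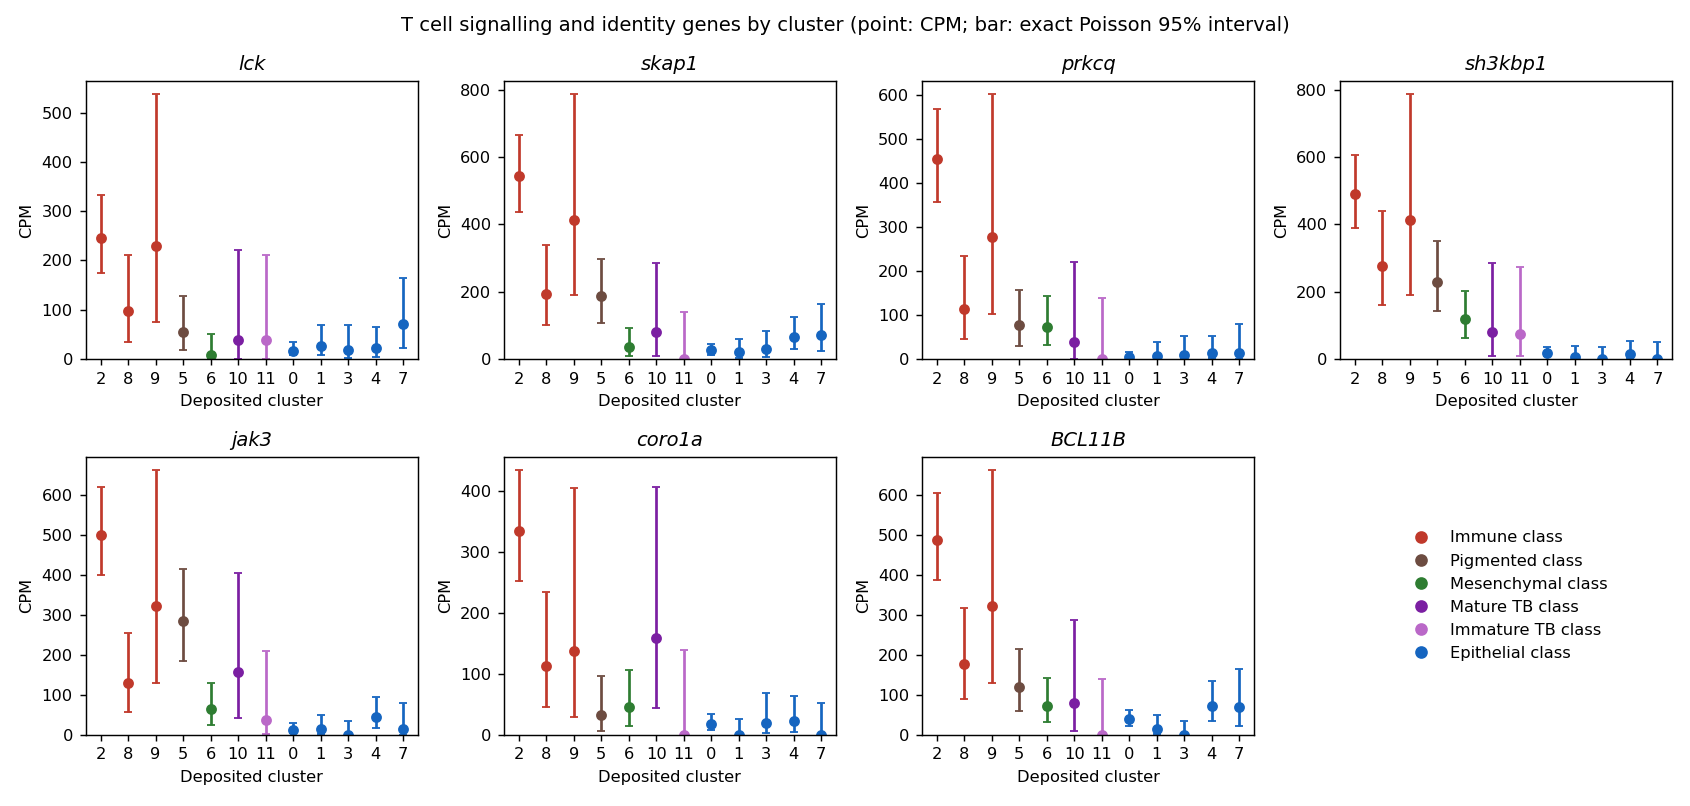
CPM (vertical axis, a separate linear scale for each gene) of the 7 genes in the 12 deposited clusters (horizontal axis, coloured by class), with bars for exact Poisson 95% intervals. Cluster 2 is highest in all 7 panels, cluster 9 has wide bars that reach into those of cluster 2, and *jak3* stands at 284 CPM in cluster 5 where *coro1a* stands at 32.8 CPM.

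Cluster by cluster, the order of the levels was only loosely fixed by the counts. For 6 of the 7 genes cluster 9 came next after cluster 2, and for *coro1a* cluster 10 did. In none of the 7 genes did 2 neighbours in the order of the 12 clusters differ by a ratio whose interval left out 1. Larger steps were clearer in size, though they too are levels from which the genes were chosen. Cluster 2 exceeded cluster 8 for all 7 genes by 1.78 to 4.00 times, and cluster 5 for all 7 by 1.76 to 10.2 times, with every one of these intervals above 1.

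Against cluster 9 the ratios of cluster 2 ran from 1.06 for *lck* to 2.42 for *coro1a*, and all 7 intervals held 1. With scaling factors from the TMM method, the same ratios were 1.73 to 3.93 and 5 of 7 intervals lay above 1. That method rescales each cluster total by genes detected in both that cluster and a reference cluster. The factors were highest in the clusters with the fewest UMIs, at 1.52 in cluster 9, 1.35 in cluster 11 and 1.27 in cluster 10. The lowest, 0.772, was that of cluster 0, which had the most UMIs. Whether the factors follow depth was not tested, so neither scaling is preferred. All 7 genes were at least 2-fold higher in cluster 9 than in other nuclei, where 16.8% of all measured features were, but 4 of 7 were so under TMM. Cluster 9 had the fewest nuclei and UMIs of the Immune class, 35 and 21723, and 3 UMIs in it amount to 138 CPM. With a prior of 0.5 UMI, the median log2 fold of the 7 genes was 1.95 in cluster 9 and 0.82 in cluster 8. Over all features it was 0.61 and 0.07. Without the prior, 55.8% of all features were at least 2-fold lower in cluster 9. The value of 0.61 thus depends on the prior at this depth and is no baseline for the 7 genes.

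In cluster 8 only *sh3kbp1* was at least 2-fold higher than in other nuclei, with a fold of 2.66 (1.505 to 4.41), and 16.5% of all features were. The other 6 genes had folds of 1.22 to 1.84 there. In cluster 5 the 2 genes at least 2-fold higher were *jak3*, with a fold of 3.01 (1.89 to 4.61), and *sh3kbp1*, with a fold of 2.23 (1.34 to 3.55), beside 16.1% of all features. The fold of *coro1a* in cluster 5 was 0.497 (0.101 to 1.4998), and it was the 1 gene of the 7 at least 2-fold lower, beside 33.0% of all features. With 7 genes, such counts are close to what the share of all features gives, and nothing is read from them.

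**Figure D2:**
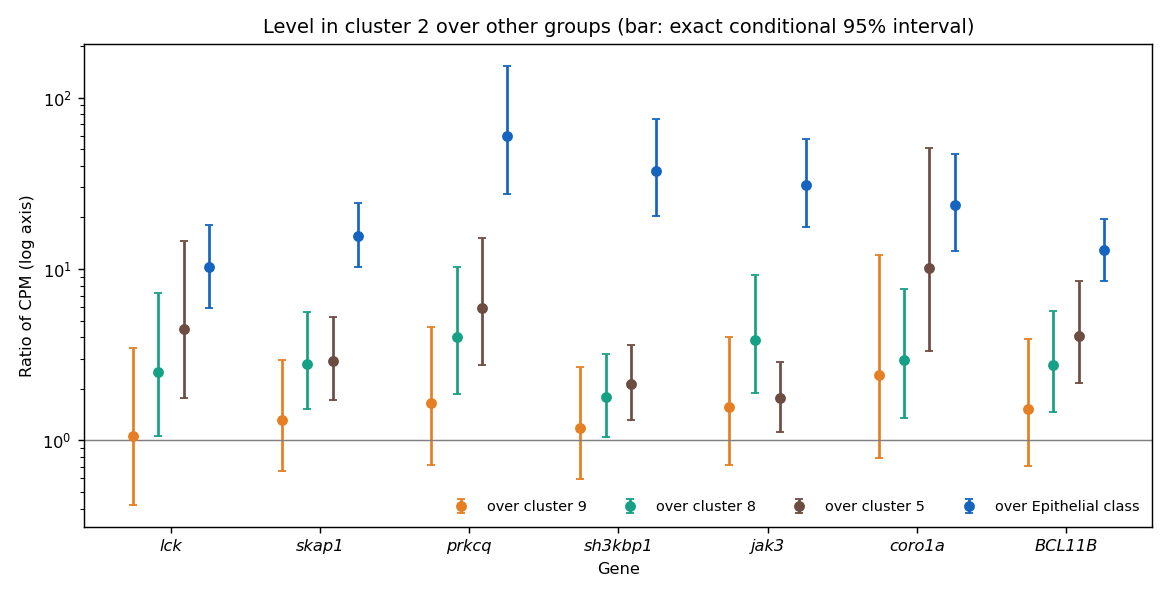
Ratio of CPM in cluster 2 over cluster 9, cluster 8, cluster 5 and the Epithelial class (vertical log axis) for each gene (horizontal axis), with bars for exact conditional 95% intervals and a grey line at 1. The ratios over the Epithelial class run from 10.2 for *lck* to 59.5 for *prkcq*, while every interval for the ratio over cluster 9 crosses the line.

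In the Epithelial clusters the 7 genes were low. The other nuclei here include the Immune clusters, from whose levels the genes were chosen, so nothing is read from the counts that follow. In clusters 0, 1 and 3 all 7 were at least 2-fold lower than in other nuclei, where 19.7%, 29.0% and 31.2% of all features were. In cluster 4 this held for 5 of the genes, with *skap1* and *BCL11B* as the exceptions, and in cluster 7 for 4, with *lck* as a further exception, beside 31.8% and 38.5% of all features, although the 0 UMIs of *coro1a* in cluster 7 could not resolve such a fold at that depth. In cluster 6 *lck* and *skap1* were at least 2-fold lower, beside 28.3% of all features. In cluster 11 there were 0 UMIs of *skap1*, *prkcq*, *coro1a* and *BCL11B*, where 3 UMIs would have been 113 CPM, and 5 of the genes were at least 2-fold lower, *jak3* with them, beside 52.5% of all features, a size that so few UMIs could not resolve. In cluster 10 *coro1a* was at least 2-fold higher, from 4 UMIs and with a fold of 2.55 (0.679 to 6.76), beside 16.9% of all features. There *jak3* had 159 CPM, also from 4 UMIs and above its level in cluster 8, while *prkcq* was at least 2-fold lower from 1 UMI, beside 56.1% of all features.

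The make-up of the signal was set side by side across groups, with no test. Of the 512 UMIs of the 7 genes in cluster 2, *jak3* gave 16.4% (13.3 to 19.9), *sh3kbp1* 16.02% (12.9 to 19.5) and *coro1a* 10.9% (8.37 to 14.0). Of the 90 such UMIs in cluster 5, *jak3* gave 28.9% (19.8 to 39.4), *sh3kbp1* 23.3% (15.1 to 33.4) and *coro1a* 3.33% (0.693 to 9.43). Of the 136 such UMIs in the Epithelial class, *BCL11B* gave 25.7% (18.6 to 33.9), *lck* 16.2% (10.4 to 23.5) and *prkcq* 5.15% (2.09 to 10.3), where cluster 2 had 16.02%, 8.01% (5.81 to 10.7) and 14.8% (11.9 to 18.2). The intervals of cluster 5 overlapped those of cluster 2 for all 7 genes, and those of the Epithelial class did so for all but *prkcq*. Summed over the 7 genes, the level was 3055 CPM in cluster 2, 2118 CPM in cluster 9, 1100 CPM in cluster 8, 985 CPM in cluster 5 and 148 CPM in the Epithelial class.

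Several of the genes were found in the same nucleus most often in cluster 2. At least 2 of the 7 genes were detected in 99 of its 181 nuclei, or 54.7% (47.1 to 62.1), in 28.0% of cluster 8 nuclei, in 28.6% of cluster 9 nuclei, in 17.3% of cluster 5 nuclei and in 2.35% of Epithelial nuclei. With every nucleus drawn down to 500 UMIs the shares were 33.3% in cluster 2 (25.9 to 41.5), 12.5% in cluster 8, 4 of 25 nuclei in cluster 9, 4.94% in cluster 5 and 1.15% in the Epithelial class. The draw left out 31 nuclei of cluster 2, 10 of cluster 9 and 114 of the Epithelial class that had fewer than 500 UMIs. Cluster 2 thus stood above the Epithelial class at equal depth as well, while the intervals of cluster 2 and cluster 9 overlapped at 500 UMIs. The genes were chosen from their levels by cluster, so equal depth does not free this contrast from that choice, and it is a description.

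In cluster 2, 26 nuclei had none of the 7 genes, 56 had 1, 46 had 2, 25 had 3, 17 had 4, 9 had 5 and 2 had 6. None had all 7. In the 61 shallowest nuclei of the cluster, at 381 to 609 UMIs, 49.2% of nuclei had at least 2 of the genes, and in the 60 deepest, at 932 to 4010 UMIs, 65.0% did. The summed level moved the other way, at 4494 CPM in the shallowest nuclei and 2524 CPM in the deepest. Most detections were of a single molecule, since nuclei with a given gene held on average 1.33 UMIs (*jak3*) to 1.65 UMIs (*prkcq*) of it.

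**Figure D3:**
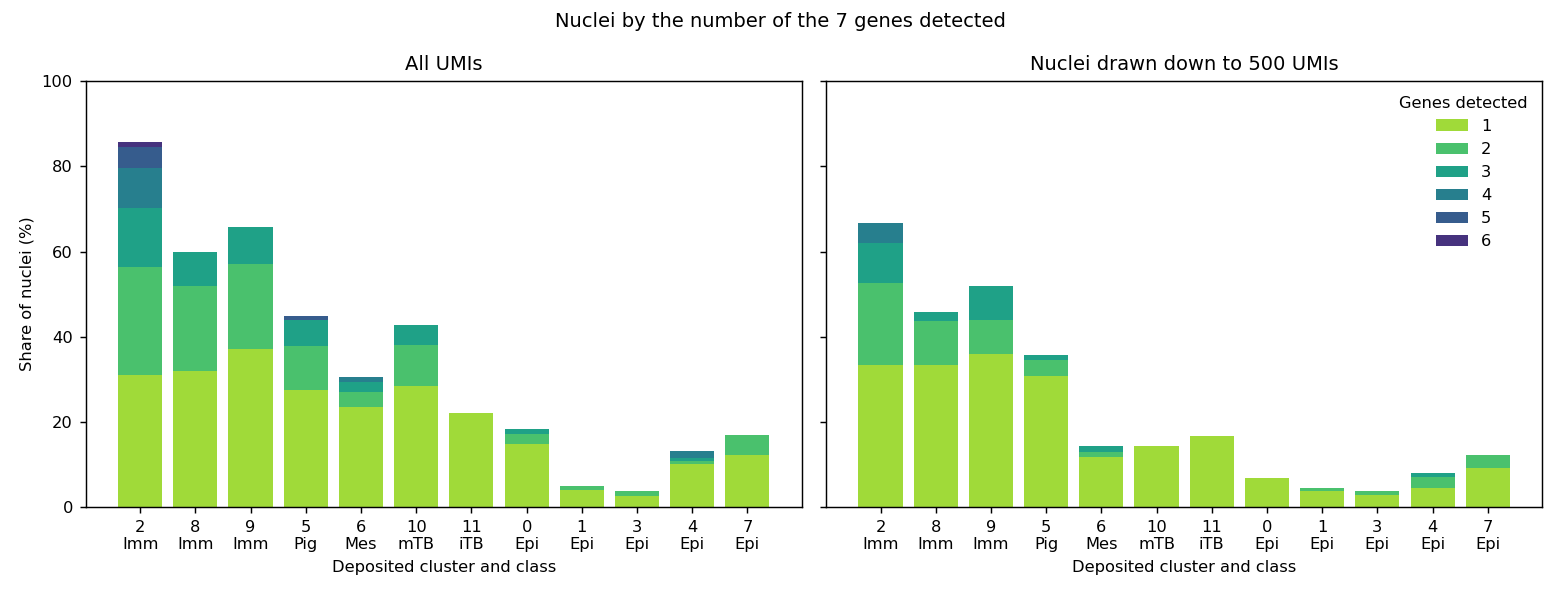
Share of nuclei (vertical axis, %) in each deposited cluster (horizontal axis, with its class) by the number of the 7 genes detected, for all UMIs at left and after drawing nuclei down to 500 UMIs at right. At left 85.6% of cluster 2 nuclei have at least 1 of the genes and 10.9% of the Epithelial nuclei do.

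Each of the 21 pairs of genes was seen together in cluster 2, in 8 nuclei for *lck* with *coro1a* up to 26 nuclei for *skap1* with *jak3*. Picked from the 21 after their values were seen, the clearest pair was *prkcq* with *sh3kbp1*, given here at unequal depth. Of the 46 nuclei with *prkcq*, 47.8% (32.9 to 63.1) also had *sh3kbp1*, against 25.2% (18.1 to 33.4) of the 135 nuclei without it. The median depth was 880 UMIs in the *prkcq* nuclei and 711 UMIs in the others. Counted in both directions, 40 of 42 pairings had the second gene more often where the first was present, with medians of 35.4% with and 27.3% without. At 500 UMIs this was so in 30 of 42, with medians of 20% with and 17.6% without, so the excess was smaller at equal depth. Both directions of a pair always share the same sign. The 42 pairings thus hold no more than the 21 pairs do, and all come from the same nuclei. In clusters 8 and 9, 14 and 13 of the 21 pairs were seen, none in more than 3 nuclei.

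**Figure D4:**
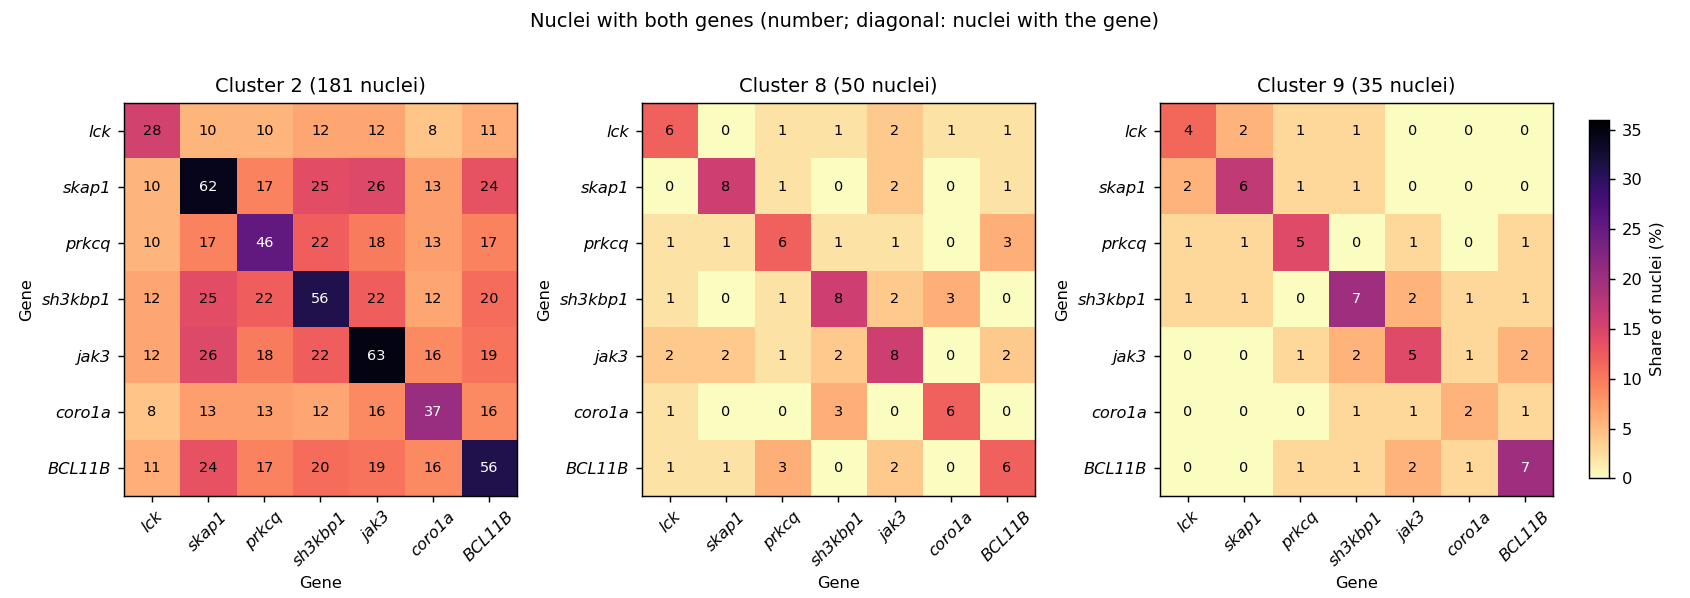
Number of nuclei with both genes of a pair (printed in each cell, with single-gene counts on the diagonal) in clusters 2, 8 and 9, with colour for the share of the cluster's nuclei (%). In cluster 2 every cell is filled, from 8 to 26 nuclei off the diagonal, while clusters 8 and 9 hold at most 3 nuclei in a pair.

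The barcodes ending in 1 and in 2 gave a view of the same clusters in separate sets of nuclei. Both sets are part of the data from which the genes were chosen, so neither is an independent check. In cluster 2, with 111 and 70 nuclei, *lck* had 221 CPM and 284 CPM, *prkcq* 403 and 536 CPM, *sh3kbp1* 499 and 473 CPM, and *coro1a* 346 and 315 CPM for endings 1 and 2. The genes with the larger gaps in CPM were *skap1*, with 614 CPM and 426 CPM, and *BCL11B*, with 557 CPM and 378 CPM. *jak3* had 528 CPM and 457 CPM, and its fold over the other nuclei was 12.2 (7.62 to 19.8) under ending 1 and 6.89 (4.11 to 11.4) under ending 2. All 7 genes stood 5.85 to 19.7 times above the other nuclei of the same ending. In cluster 9, with 14 and 21 nuclei, *BCL11B* had 1 UMI and 6 UMIs, *lck* 4 and 1, and *coro1a* 0 and 3, which is too few to set an order. In cluster 5 *BCL11B* had 10 UMIs (187 CPM) under ending 1 and 1 UMI (26.3 CPM) under ending 2.

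The surrounding pathway was read from gene lists put together with earlier results of these data known. The 7 genes themselves are left out of them, and up to 5 members per list are named by their CPM in cluster 2. Of the list for the T cell receptor complex and its proximal signalling, 17 features were measured and 13 were at least 2-fold higher in cluster 2, none lower, with a median log2 fold of 1.64. Of all features, 13.4% were at least 2-fold higher in cluster 2 and 25.3% lower. In cluster 5, 11 of the 17 were at least 2-fold higher, with a median of 1.34, beside 16.1% of all features. That count is close to the one of cluster 2. In cluster 8, 2 of the 17 were at least 2-fold higher and in cluster 9, 7 were, beside 16.5% and 16.8% of all features. Among these members were *FYN* (1 of many), a Src-family kinase close to Lck, with 1283 CPM and a fold of 6.66 (5.51 to 8.03), and *grap2a*, which encodes a GADS adaptor, with 448 CPM and a fold of 10.6 (7.36 to 15.4). The phospholipase gene *plcg1* had a fold of 2.83, the phosphatase gene *ubash3ba* one of 6.70, and the ubiquitin ligase gene *cblb*, with 1832 CPM, one of 1.44. A feature named 1 of many may share reads with its copies.

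Costimulation and adhesion gave 8 of 12 measured features at least 2-fold higher in cluster 2 and 1 lower, with a median log2 fold of 2.19. Of all features, 13.4% were at least 2-fold higher there and 25.3% lower. Cluster 5 had 9 of the 12 at least 2-fold higher, with a median of 1.65, beside 16.1% of all features. *DOCK2*, which encodes an activator of the small GTPase Rac in white blood cells, had 1355 CPM in cluster 2 and a fold of 7.84 (6.48 to 9.48). Its partner gene *ELMO1* had 370 CPM in cluster 2 but 591 CPM in cluster 5. The actin regulator genes *dock10* and *wipf1a* had folds of 6.87 and 5.70, and *dock8* one of 2.56.

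By contrast, the route from protein kinase C theta to NF-kB and NFAT was mostly flat. Of its 23 measured features 4 were at least 2-fold higher in cluster 2 and 2 lower, with a median log2 fold of 0.26. Of all features 13.4% were higher, a share close to that of the list, and 25.3% were lower. Cluster 5 had 5 of the 23 at least 2-fold higher, beside 16.1% of all features. The transcription factor gene *nfatc3a* and the calcium signalling genes *stim1a*, *itpr3* and *ppp3ccb* had folds of 1.45, 0.960, 1.19 and 0.911. In cluster 8 *itpr3*, an inositol trisphosphate receptor gene, had 631 CPM and a fold of 2.89.

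Of 11 measured features of the common gamma chain and JAK-STAT list, 5 were at least 2-fold higher in cluster 2 and none lower, with a median log2 fold of 0.51, and 2 were at least 2-fold higher in cluster 5. For this list and the next, the shares of all features at least 2-fold higher were 13.4% in cluster 2 and 16.1% in cluster 5. Those at least 2-fold lower were 25.3% and 33.0%. The JAK3 partner kinase gene *jak1* had 591 CPM and a fold of 2.48, *stat5a* 591 CPM and 4.72, *jak2a* 179 CPM and 3.81, and *stat4* 155 CPM and 7.79. *stat6* had a fold of 1.40. The list of T lineage transcription factors had 17 of 31 measured features at least 2-fold higher in cluster 2 and 3 lower, with a median log2 fold of 1.19. In cluster 5, 6 were higher and 5 lower, and nothing is read from these counts. Another 3 had 0 UMIs there that could not resolve such a fold. The named members of the list were *runx3* with 2906 CPM and a fold of 4.88, *roraa* with 1880 CPM and 1.45, *tox2* with 1569 CPM and 7.64, *ets1* with 1337 CPM and 8.11, and *tcf7* with 1301 CPM and 7.04. Cluster 5 had as much *runx3* as cluster 2, at 3009 CPM.

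Close relatives of the 7 genes were read in the same way. Of 31 measured kinase and adaptor relatives, 6 were at least 2-fold higher in cluster 2 and 3 lower, with a median log2 fold of -0.04. Of all features 13.4% were higher and 25.3% lower, with a median of -0.03, so nothing is read from the counts. The kinase genes *jak1* and *jak2a* count in this list too. The protein kinase C beta gene *PRKCB* (1 of many) had 615 CPM in cluster 2 and 656 CPM in cluster 5, and the alpha form *prkcaa* had 883 CPM in cluster 2 and 1165 CPM in cluster 8. *BCL11A*, the sister gene of *BCL11B*, had 507 CPM in cluster 2 and 710 CPM in the Epithelial class, with a fold of 0.787 (0.622 to 0.985). The coronin gene *coro7* had 2124 CPM in cluster 2 and a fold of 2.82. Further Src-family genes were named after their values were seen and do not stand for the whole family. The myeloid kinase gene *hck* had 42 of its 96 UMIs in cluster 5 and 16 in cluster 2. For 1 feature named *lyn*, 22 of its 25 UMIs were in cluster 5 and 1 in cluster 2.

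**Figure D5:**
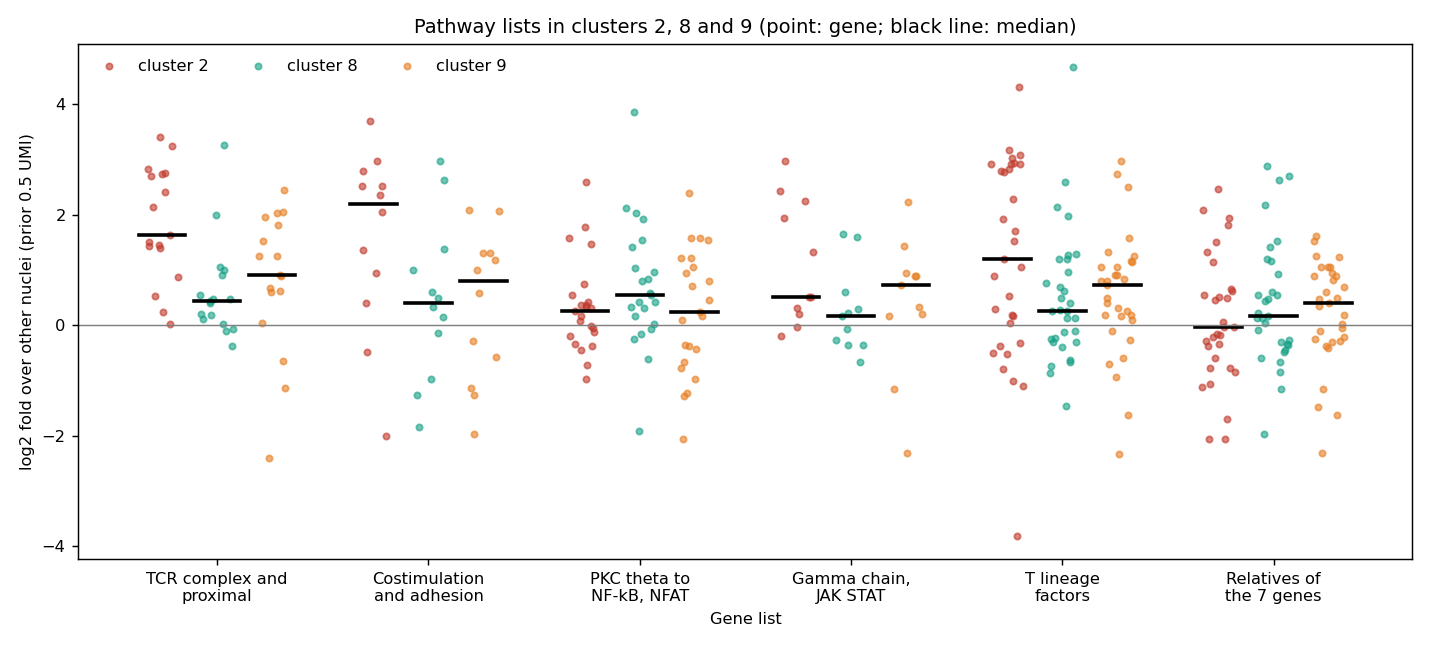
Log2 fold over other nuclei (vertical axis, with a prior of 0.5 UMI) of each measured gene (point) of 6 lists (horizontal axis) in clusters 2, 8 and 9 (colours), with a black line at each median. In cluster 2 the medians are 1.64 for receptor-proximal signalling and 2.19 for costimulation, and 0.26 for the route to NF-kB and NFAT.

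Markers of cell types were read beside the 7 genes. Of 21 names in the T cell list 6 were matched to a feature, and these 6, *tcf7*, *gata3*, *itk*, *ccr7*, *ptprc* and *zap70*, were all at least 2-fold higher in cluster 2, with a median log2 fold of 2.80 and a summed level of 2184 CPM, beside 13.4% of all features. The summed level was 696 CPM in cluster 8, 875 CPM in cluster 9 and 1039 CPM in cluster 5. In cluster 2 *tcf7* alone gave 1301 CPM of the sum. The kinase gene *itk* had 203 CPM in cluster 2 and a fold of 9.43 (5.52 to 16.3), and *zap70* had 89.5 CPM and 7.02 (3.23 to 15.2). The genes *itk*, *zap70* and *ptprc* count in the receptor-proximal list too, and *tcf7* and *gata3* in that of T lineage factors. The marker list is therefore not separate from those lists. The other 15 names, among them those of CD3, CD4, CD8 and receptor chains, were matched to no feature and were not analysed here. Of the cytotoxic and natural killer list 3 features were measured, 2 of them at least 2-fold higher and 1 lower in cluster 2. Of all features 13.4% were higher there and 25.3% lower. Cluster 2 had 221 CPM of *sh2d1ab* and 197 CPM of *tbx21*. Cluster 5 had 4 of the 6 T cell markers at least 2-fold higher, beside 16.1% of all features. Among clusters 2, 8, 9 and 5, the T cell markers that could be read thus had their highest summed level in cluster 2, as did the 7 genes. The sum of the markers was not taken for the other clusters. Cluster 2 also held 95.5 CPM of the B cell factor gene *pax5*, from 16 of its 36 UMIs and with a fold of 5.99 (2.90 to 12.2). The erythroid and thrombocyte list had 3 of 3 measured features at least 2-fold higher in cluster 2. Its median log2 fold there was 1.97 and its summed level 185 CPM.

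Cluster 5 carried the macrophage and dendritic cell list, with 9 of 9 measured features at least 2-fold higher, a median log2 fold of 4.88 and a summed level of 5711 CPM, beside 16.1% of all features. The summed level of the list was 442 CPM in cluster 2, 696 CPM in cluster 8 and 92.1 CPM in cluster 9. Of the pigment cell list 4 of 7 measured features were at least 2-fold higher in cluster 5. In cluster 5 these markers stood beside 284 CPM of *jak3* and 229.8 CPM of *sh3kbp1*. Cluster 2, with its macrophage and dendritic sum of 442 CPM, had more of both genes, at 501 CPM and 489 CPM. The part of the markers in these levels was not tested. In cluster 8 the goblet and secretory list had 4 of 5 measured features at least 2-fold higher, led by *prox1a* with 1117 CPM and *foxa3* with 324 CPM. The gene *prox1a* counts in the endothelium and taste bud lists too. The B and plasma cell list had 7 of 10 higher in cluster 8, with a median of 1.65 and a summed level of 1602 CPM, beside 16.5% of all features. Cluster 5 had the same count of the B and plasma cell list, with a median of 2.12 and 2429 CPM. The gene *cd74a* alone gave 987 CPM of the sum in cluster 8, 1696 CPM in cluster 5 and 352 CPM in cluster 2. The B cell factor gene *pax5* had 2 UMIs in cluster 8, with a fold of 1.30 (0.151 to 5.05). In cluster 2 *foxa3* was at 0 UMIs and the B and plasma cell list had 4 of 10 and 758 CPM, beside 13.4% of all features.

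Epithelial transcripts were present in all Immune clusters. The epithelium list summed to 10490 CPM in cluster 2, 11894 CPM in cluster 8 and 14087 CPM in cluster 9, with 11, 10 and 7 of 19 measured features at least 2-fold lower than in other nuclei, beside 25.3%, 34.4% and 55.8% of all features. Of the 19, 1 in cluster 8 and 3 in cluster 9 had 0 UMIs at a depth that could not resolve such a fold. These were left out of the counts, while the shares of all features include such features. In clusters 8 and 9 the counts and shares are therefore not alike, and nothing is read from setting them side by side. The basal keratin gene *krt5* had 3801 CPM in cluster 2 and 3683 CPM in cluster 9, against 13959 CPM in the Epithelial class. The integrin gene *itga6b* had 4097 CPM in cluster 9 and 1432 CPM in cluster 2, against 3054 CPM in the Epithelial class. The part of these transcripts in the levels of the 7 genes was not tested.

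Within cluster 2, nuclei were compared by 12 single T cell and lymphocyte genes that were picked after the levels by cluster were known. The 27 nuclei with a UMI of *itk* had a summed level of the 7 genes of 4788 CPM, against 2729 CPM in the 154 nuclei without it, a ratio of 1.75 (1.42 to 2.15), with median depths of 848 and 730 UMIs. The ratio was 1.41 (1.09 to 1.80) for *ptprc*, the gene of CD45, 1.25 (1.01 to 1.53) for *gata3* and 1.35 (0.995 to 1.79) for *foxp3b*. For *tbx21*, the gene of the factor T-bet, it was 0.968 (0.762 to 1.22), and for *zap70* it was 0.938 (0.684 to 1.26). The 10 nuclei with *pax5* had a ratio of 0.750 (0.493 to 1.097), with 0 UMIs of *coro1a* and 10 UMIs of *jak3* in 6 nuclei. The other 5 of the 12 genes tried, *rorc*, *tcf7*, *sh2d1ab*, *ccr7* and *cd40lg*, had ratios of 0.772 to 1.45, with 1 inside every interval.

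Other genes with a like pattern were named from 4361 features with at least 50 UMIs, by Pearson's r of log2(CPM + 10) over the 12 clusters. These clusters come from the same libraries and differ in depth, and r is given as a description. Against the mean of the 7 genes the highest values were 0.94 for *ARHGAP9*, 0.94 for *DOCK2*, 0.93 for *CHST15*, 0.93 for *dtnba* and 0.93 for *stat4*, followed by *SLC9A9*, *slc6a9*, *ankrd44*, *pald1a* and *grapa* down to 0.90. The gene most like each was *ranbp10* for *lck* (0.96), *stat4* for *skap1* (0.94), *GNAZ* for *sh3kbp1* (0.94), *CHST15* for *prkcq* (0.94), *fli1b* for *jak3* (0.97), *pde3b* for *coro1a* (0.91) and *CHST15* for *BCL11B* (0.95). Among the 7 genes themselves the 21 values of r ran from 0.57 for *lck* with *coro1a* to 0.93 for *sh3kbp1* with *jak3*, with a median of 0.79.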

How the data were processed

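The deposited values are raw UMI counts of each feature in each barcode, and the submitters' processing notes name Cell Ranger 3.1.0. Its settings and the genome build are not stated there. The authors' deposited metadata gave clusters, class names and the kept mark, which equals more than 300 and fewer than 2500 detected genes. A deposited score per nucleus was not used. The 7 genes and all gene lists were chosen with earlier results of these data known. Genes named were all 7, up to 5 per pathway list by CPM in cluster 2 (at least 20 UMIs), the 10 features most like the 7 genes and the 3 most like each, of which the first is printed, and markers with at least 10 UMIs in clusters 2, 8 and 9 together, of which a selection is printed. The genes *hck* and *lyn* were named outside these rules, after their values were seen.

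UMIs were summed per cluster and scaled to CPM with Python 3.11.15, numpy 2.4.6 and pandas 2.3.3. Exact Poisson, exact conditional and Clopper-Pearson 95% intervals came from scipy 1.17.1. Log2 folds for medians used a prior of 0.5 UMI, and features counted as measured from 10 UMIs. Detection was compared after drawing nuclei down to 500 UMIs. Alternatives used edgeR 4.0.16 for TMM factors (R 4.3.3) and Scrublet in scanpy 1.11.5. On counts simulated with Poisson error alone, 97.0% of intervals held the true fold. That simulation has no spread between nuclei, so it cannot show how the intervals do on real nuclei. With a single pooled sample no p is given. Depth sets the precision, with 3 UMIs equal to 17.9 CPM in cluster 2, 48.5 CPM in cluster 8, 138 CPM in cluster 9 and 3.27 CPM in the Epithelial class. Of the barcode sequences, 1 occurred under both endings. No sequences are shown. A gene that the naming rule picks is not reported here.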

Additional observations from a re-analysis of the deposited data

Results flagged for a closer look

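All 7 genes were also present in the 41 barcodes that exceeded the gene limit and entered no comparison. Over their 658114 UMIs *lck* had 28.9 CPM, *skap1* 31.9 CPM, *prkcq* 19.8 CPM, *sh3kbp1* 39.5 CPM, *jak3* 30.4 CPM, *coro1a* 36.5 CPM and *BCL11B* 54.7 CPM, where 3 UMIs equal 4.56 CPM. These levels drew attention because they exceed that floor in data outside the main measurement. A single barcode with 134092 UMIs held 20.4% of all UMIs in these barcodes and 52 of the 159 UMIs of the 7 genes. In the 44 barcodes under the limit the 7 genes had 17 UMIs in all, each gene at or below the floor of 3 UMIs.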

How the results depend on the processing

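The folds of the 7 genes in cluster 2 and in the Immune class were recomputed under 8 settings (mean over nuclei, without the 20% shallowest or the 5% deepest nuclei, without doublet calls, either barcode ending alone, without ribosomal features, TMM). All 112 values lay between 5.85 and 25.1 and none changed direction. The genes were chosen from these levels and the settings reuse the same counts, so nothing is read from the shared direction. The values that moved beyond the counting interval were *BCL11B* in cluster 2 at 5.85 and *skap1* in the Immune class at 6.48, both under ending 2 alone, and the cause was not tested. Of the 7 genes, 5 passed a fold of 1.5 and 0 a fold of 3 in cluster 8, 1 passed a fold of 3 in cluster 5, and 4 passed a fold of 2 in cluster 9 under TMM, an alternative for cluster 9 chosen after seeing the data. At 500 and 800 UMIs the share of nuclei with at least 2 of the genes fell to 33.3% and 43.6% in cluster 2. In cluster 8 it fell to 12.5% and 9.09%. In cluster 9 it was 1 of 7 nuclei at 800 UMIs, or 14.3% (0.361 to 57.9). Under ending 1 alone it was 14.3% (1.78 to 42.8) of 14 nuclei, so both values are too few to read. Drawing down also left out shallow nuclei, at 800 UMIs 103 of cluster 2, 17 of cluster 8 and 28 of cluster 9, so depth was not the only change. Of the 10 features most like the 7 genes, 6 were shared with log2(CPM + 50). Scrublet marked 1 of 1296 nuclei, so leaving out its calls says little about doublets. The counts of clusters 8 and 9 limit every value given for them. No paired analysis was possible because no source ties a nucleus to its jaw and no test was run.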
